A study of Arabidopsis thaliana with 30 samples.

Results

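A group of 60 genes gave a much lower signal in Arabidopsis thaliana seeds at 12 days after flowering (DAF) than at 8 DAF, in wild type seeds and in seeds of 3 maturation mutants alike. The genes were chosen on that behaviour: the mean log2 signal at 12 DAF had to lie at least 2 units, that is 4-fold, below the mean at 8 DAF in fus3-3, Col-0, lec1-1, lec2-1 and WS each. Of 13355 genes with a probe set annotated to them alone, 65 met these thresholds. A list of 7 genes was left out by name, 5 of which had met the thresholds, and the remaining 60 genes are 0.449% of those measured. Because the age changes chose the genes, they are described below without a test. The comparisons of mutant with wild type at 1 age were not the measure of the choice and were tested. They use the same group means, and a gene that did not fall in a mutant could not be chosen. Counts for the 60 genes are therefore not independent of the choice, and the shares of all genes beside them are surroundings only.

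During this period of seed growth the embryo leaves the phase of pattern formation and enters maturation, in which storage proteins and oil are laid down and tolerance of drying is acquired. The seed coat, a maternal tissue, finishes its growth at about the same time, with mucilage in its outer layer and tannin precursors in its innermost layer. LEC1, an NF-YB type protein that acts within a trimeric DNA-binding complex, and the B3-domain factors LEC2 and FUS3 switch on maturation in the embryo, and their mutants make seeds that enter it incompletely.

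Plants were kept at 22 °C with 16 h of light a day, seeds were taken out of their siliques, and total RNA was hybridized to 30 Affymetrix arrays. There were 10 groups of 3 arrays, labelled as biological replicates from triplicate batches of plants. The titles number the 3 Col-0 arrays at 12 DAF in another form than those of the other groups, as parts of a first sample. Whether their plants were separate is thus less sure, and the Col-0 SDs at 12 DAF rest on them. The SEs and p-values of fus3-3 against Col-0 rest on them at both ages, as the spread was estimated from all arrays of that background. The groups were seeds of homozygous fus3-3 plants at 12 and 8 DAF beside their wild type Col-0 at 12 and 8 DAF, and seeds of homozygous lec1-1 and of homozygous lec2-1 plants at 12 and 8 DAF beside their wild type WS at 12 and 8 DAF. The lec1-1 and lec2-1 comparisons share the WS arrays. As the plants were homozygous, seed coat and embryo both carried the mutation, and whole seeds were measured, so fewer cells of a type and less RNA per cell cannot be told apart. LEC1, LEC2 and FUS3 had no probe set of their own in the annotation used, so the genotype labels were not checked by the mutated gene.

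The array medians lay between 4.3 and 4.71 log2 units, and arrays of 1 group correlated at 0.984 to 0.996. At 12 DAF the medians of all mutant arrays were above those of their wild type, at 4.54 to 4.67 in fus3-3 against 4.35 to 4.41 in Col-0, and at 4.65 to 4.71 in lec1-1 and 4.54 to 4.58 in lec2-1 against 4.3 to 4.34 in WS. The labelled tissue was checked with genes for embryo reserves, of which 3 of 13 were measured. Their mean log2 signal per array ran from 8.79 to 14.3 over all arrays. At 8 DAF the group mean was 9.14 in fus3-3 against 12.91 in Col-0. It was 11.82 in lec1-1 and 13.62 in lec2-1 against 14.07 in WS. At 12 DAF it was 10.68 in fus3-3 against 14.07 in Col-0, and 12.84 in lec1-1 and 14.23 in lec2-1 against 14.29 in WS. AT1G03890, 1 of the 3, was at 2.18 in fus3-3 and 10.77 in Col-0 at 8 DAF. As their level differed with genotype, these 3 genes do not compare the tissue between genotypes. A marker of the silique wall, ALC, which patterns the valve margin, was the measured 1 of 6 such genes and ran from 2.87 to 5.70. At 12 DAF it lay at 4.96 to 5.70 in fus3-3 against 3.42 to 4.15 in Col-0, and at 5.38 to 5.58 in lec1-1 and 4.94 to 5.11 in lec2-1 against 3.21 to 3.84 in WS, and the part of this in the 12 DAF comparisons was not tested. Of 13 endosperm genes 4 were measured, with AGL62 and IKU2 under 3 in every group. The mean of the 4 per array at 12 DAF was 3.67 to 3.82 in fus3-3 against 3.01 to 3.28 in Col-0, and 3.79 to 4.13 in lec1-1 and 3.27 to 3.52 in lec2-1 against 3.24 to 3.48 in WS, and its part was likewise not tested. The higher means came from MPC, at 5.66 in fus3-3 against 2.62 in Col-0, and 6.14 in lec1-1 and 3.62 in lec2-1 against 2.75 in WS. IKU1 ran the other way, at 4.34 in fus3-3 against 4.99 in Col-0, and 4.78 in lec1-1 and 4.94 in lec2-1 against 5.33 in WS. The lowest signal on an array was 1.65 to 1.76, and a group mean under 3 was read as at or near this floor, so a fall that ends there is at least the size given and is not ranked among its like.

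**Figure D1:**
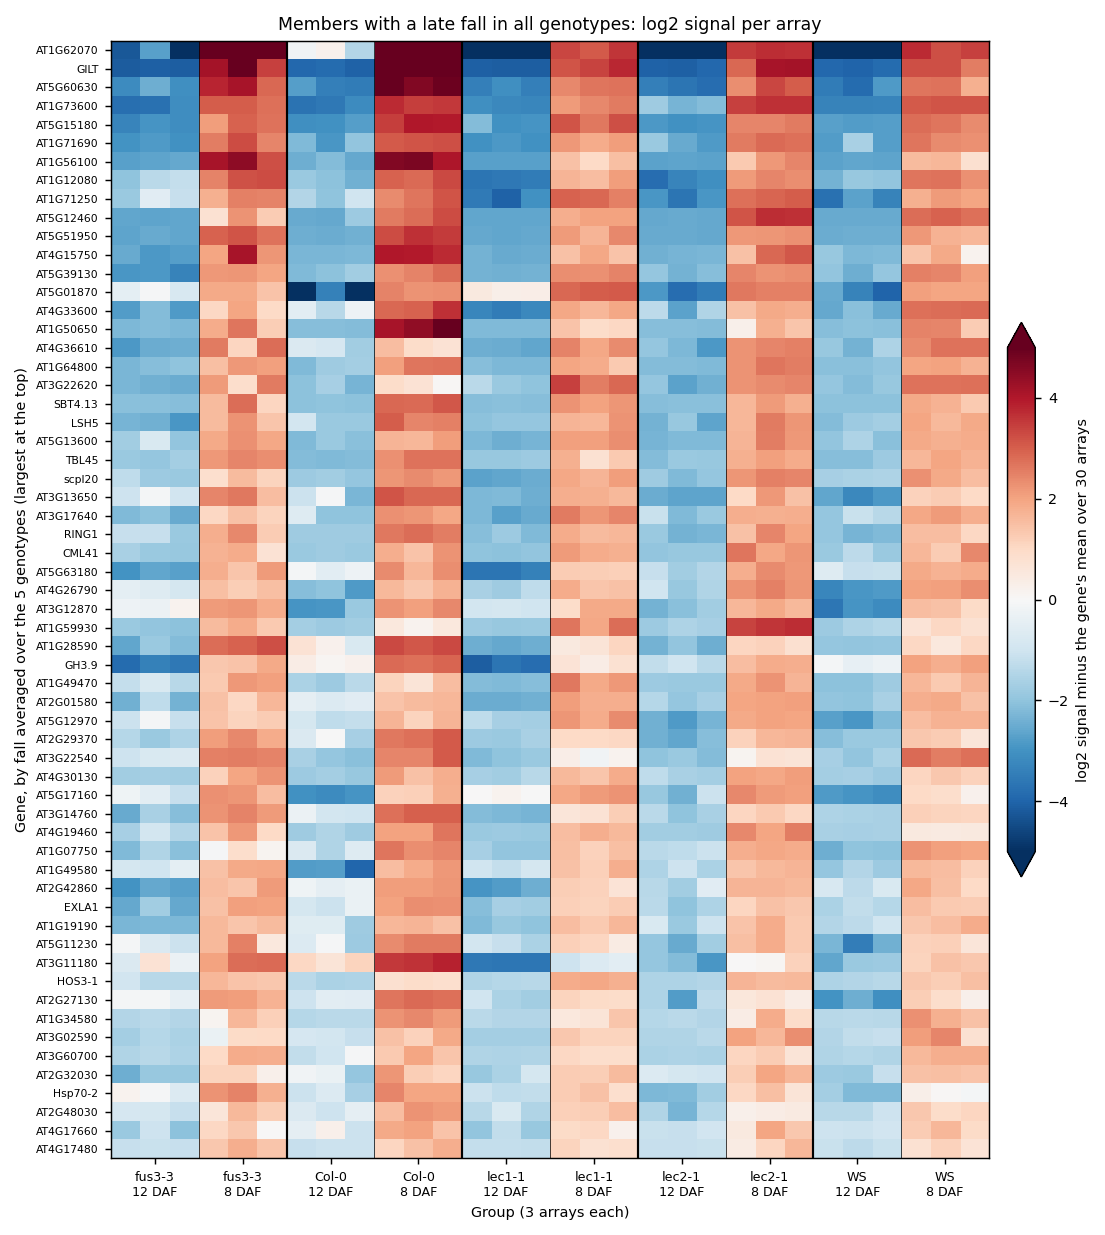
Log2 signal of the 60 genes on each of the 30 arrays, as the difference from the gene's own mean over all arrays (colour, log2 units, clipped at 5 on either side); genes run down the page by their mean fall and each genotype has its 12 DAF arrays left of its 8 DAF arrays. For most genes the 12 DAF blocks are blue and the 8 DAF blocks red in all 5 genotypes. Exceptions include AT5G01870 in lec1-1 and GH3.9 in Col-0, which at 12 DAF lie above the gene's own mean. GH3.9 at 12 DAF is a darker blue in fus3-3 and lec1-1 than in lec2-1 and WS.

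The median difference over the 60 genes, 12 minus 8 DAF, was -3.52 log2 units in fus3-3 and -3.79 in Col-0. It was -3.75 in lec1-1 and -3.84 in lec2-1, with -3.64 in WS. Over all genes the corresponding medians were 0.01 in fus3-3, 0.05 in Col-0, -0.02 in lec1-1, 0.01 in lec2-1 and 0.09 in WS. A fall of at least 2 units was seen for 1.97% of all genes in fus3-3 and 4.11% in Col-0, and for 1.8% in lec1-1, 2.18% in lec2-1 and 3.68% in WS. The 60 genes are 22.8% of the 263 genes with such a fall in fus3-3 and 10.9% of the 549 in Col-0, and 25.0% of the 240 in lec1-1 and 20.6% of the 291 in lec2-1 with 12.2% of the 491 in WS. The 12 and 8 DAF arrays of the 60 genes did not overlap in any of them, as the threshold nearly requires.

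**Figure D2:**
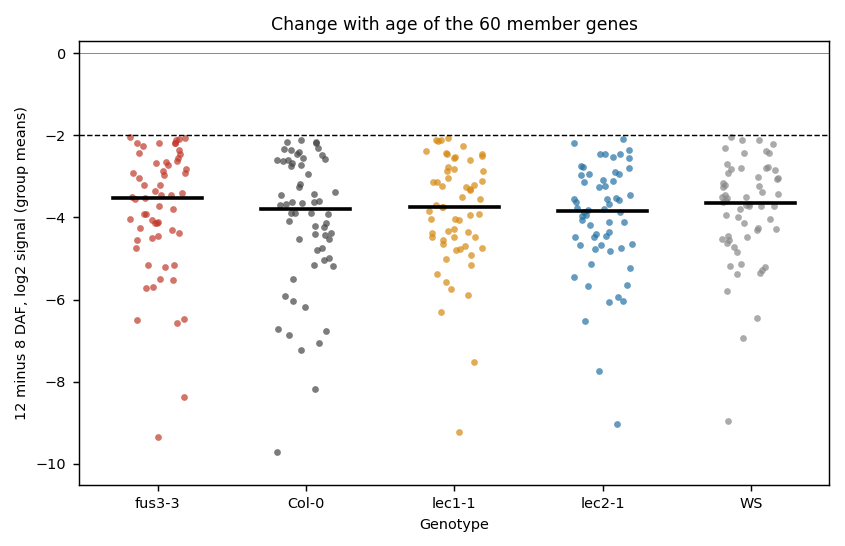
Difference in group mean log2 signal, 12 minus 8 DAF, for each of the 60 genes (points) in each genotype, with the median as a black bar and the threshold of the rule as a dashed line. The medians lie between -3.84 (lec2-1) and -3.52 (fus3-3), and single genes reach -9.71 in Col-0.

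Of the 60 genes, 49 carry only a locus identifier in the annotation used, and no function is given here for them. AT1G62070 is one of these, and its measured fall averaged -8.52 over the 5 genotypes. Its signal at 12 DAF was 4.49, 6.01 and 3.67 in fus3-3, against 14.11, 14.11 and 13.96 at 8 DAF. In Col-0 it was 8.55, 8.94 and 7.28 at 12 DAF, against 14.14, 14.29 and 14.46 at 8 DAF. The gene thus kept a signal above the floor at 12 DAF in both genotypes, higher in all 3 Col-0 arrays than in the fus3-3 arrays. In lec1-1 the 12 DAF signal was 2.95, 2.79 and 2.78, against 12.06, 11.79 and 12.32 at 8 DAF. In lec2-1 it was 3.15, 3.10 and 3.73, against 12.23, 12.42 and 12.40. In WS it was 3.14, 3.43 and 3.18, against 12.46, 11.97 and 12.17. All 3 genotypes of the WS background thus ended close to the floor.

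GILT has the name of a thiol reductase that, in animals, opens disulfide bonds of proteins inside lysosomes. Its 12 DAF signals lay between 2.21 and 2.51 on all 15 arrays of that age. At 8 DAF it gave 10.52, 11.49 and 9.77 in fus3-3 and 12.08, 12.17 and 12.12 in Col-0. The 8 DAF signals were 9.49, 9.72 and 10.11 in lec1-1, 9.25, 10.49 and 10.51 in lec2-1, and 9.59, 9.57 and 8.92 in WS. Its falls, all lower bounds, were -8.36 in fus3-3, -9.71 in Col-0, -7.52 in lec1-1, -7.74 in lec2-1 and -6.93 in WS. The gene was thus at the floor at 12 DAF in every genotype, while its 8 DAF level differed between the genotypes by up to 2.76 units.

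Other genes whose measured mean fall exceeded 5 units were AT5G60630 (-6.57), AT1G73600 (-6.23), AT5G15180 (-5.81), AT1G71690 (-5.24), AT1G56100 (-5.22), AT1G12080 (-5.07), AT1G71250 (-5.05), AT5G12460 (-5.03) and AT5G51950 (-5.03). Several of these, such as AT1G71690, AT1G56100 and AT5G12460, ended under 3 in all 5 genotypes, so their falls are lower bounds and no order is read among them. Of the 60 genes, 10 fell by at least 4 units in all 5 genotypes, among them GILT, AT1G62070, AT1G12080 and AT5G12460. At 12 DAF 17 genes had a mean under 3 in all 5 genotypes, including TBL45, CML41, GILT, HOS3-1 and SBT4.13. Another 18 genes stayed at 3 or above in all 5, including EXLA1, GH3.9, scpl20 and Hsp70-2, and the other 25 were under 3 in 1 to 4 genotypes. The group therefore mixes genes whose signal ended at the floor with genes that were reduced and still well measured.

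Among the genes with a name, EXLA1 belongs to the expansin-like proteins, relatives of the expansins that loosen plant cell walls. It gave 7.78, 8.61 and 7.77 at 12 DAF in fus3-3, against 11.78, 12.38 and 12.35 at 8 DAF. In Col-0 it gave 9.46, 9.26 and 9.99 at 12 DAF, against 12.33, 12.63 and 12.59 at 8 DAF. In the WS background it ran from 8.21 to 9.09 at 12 DAF and from 11.41 to 11.85 at 8 DAF over lec1-1, lec2-1 and WS together. EXLA1 was thus still strongly detected at 12 DAF everywhere. Of 44 measured genes named as expansins, xyloglucan enzymes or endoglucanases, 9 were called lower and 4 higher at 12 than at 8 DAF in fus3-3, and 12 lower and 3 higher in Col-0. In lec1-1 8 were lower and 5 higher, in lec2-1 7 and 3, and in WS 6 and 4. The shares of all genes called lower with age were 4.81% in fus3-3, 9.7% in Col-0, 4.93% in lec1-1, 6.34% in lec2-1 and 8.84% in WS, and those called higher 4.24% in fus3-3, 8.42% in Col-0, 6.2% in lec1-1, 6.64% in lec2-1 and 6.45% in WS. EXLA1 was the single one of the 44 among the 60 genes. Its chromosomal neighbour EXLA3 stayed between 2.17 and 2.35 in all group means. TBL45, of the trichome birefringence-like family, several members of which acetylate wall polysaccharides, had group means from 2.12 to 2.47 at 12 DAF and from 5.57 to 6.88 at 8 DAF.

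Both named proteases of the group are secreted-type enzymes by family: scpl20 is a serine carboxypeptidase-like protein and SBT4.13 a subtilase. scpl20 gave 6.20, 5.67 and 5.64 at 12 DAF in fus3-3, against 8.31, 9.08 and 8.59 at 8 DAF. In Col-0 it gave 5.65, 5.73 and 5.56 at 12 DAF, against 9.69, 9.85 and 9.66 at 8 DAF. In lec1-1, lec2-1 and WS its fall was -4.48, -4.35 and -3.50. The SBT4.13 signal ended between 2.10 and 2.22 on all 12 DAF arrays and ran from 5.32 to 7.36 at 8 DAF. A list of 34 measured genes named as proteases held these families and CP1, which is of neither. Of the 34, 4 were called lower and 4 higher with age in fus3-3, and 10 lower and 2 higher in Col-0. The shares of all genes were just given. In lec1-1 3 were lower and 1, CP1, higher, in lec2-1 7 were lower and 1 higher, and in WS 8 and 1. The rule used these age changes for both genes, so the counts are given as the surroundings only.

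The other named genes cover unrelated functions. CML41 is a calmodulin-like calcium sensor, RING1 a RING-finger ubiquitin ligase and HOS3-1 a member of the ELO family of fatty acid elongases. Their mean falls over the 5 genotypes were -3.69, -3.80 and -2.87. LSH5, named for light-sensitive hypocotyls, had falls from -4.44 in lec2-1 to -3.72 in WS. Hsp70-2, a cytosolic chaperone, stayed well above the floor at 12 DAF, with 8.18, 7.92 and 7.29 in fus3-3 and 6.92, 7.28 and 6.33 in Col-0, and its falls ran from -3.26 in Col-0 to -2.13 in WS. GH3.9, a putative enzyme that joins auxin to amino acids, fell most in fus3-3 and lec1-1 and is described with the mutants.

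The measured falls of a gene lay within 1 unit of each other in the 5 genotypes for 14 genes. The 12 DAF mean of 6 of these, CML41 and HOS3-1 among them, was under 3 in all 5 genotypes, and that of 6 others in 1 to 4, so that closeness is not read from them. The remaining 2, AT2G48030 and AT5G39130, stayed at 3 or above in all 5. For AT1G50650, AT1G59930, AT1G62070, AT4G26790 and AT5G01870 they spread over more than 3 units. The fall was smaller by at least 1 unit in fus3-3 than in Col-0 for 20 genes and larger by as much for 11. In lec1-1 it was smaller for 7 and larger for 7 than in WS, and in lec2-1 smaller for 5 and larger for 4. The difference of age changes had a median of 0.38 in fus3-3, -0.17 in lec1-1 and -0.25 in lec2-1, against -0.04, -0.12 and -0.08 over all genes. These differences are built from the values that chose the genes, many of them end at the floor, and they carry no test.

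The genes nearest the threshold are given by their weakest fall. Just inside were AT4G17480 with -2.05 in WS, AT5G12970 with -2.05 in fus3-3, AT5G17160 with -2.05 in lec1-1 and AT4G26790 with -2.07 in fus3-3. Just outside were AT3G20270 with -1.98 and AT4G38410 with -1.96, both in lec1-1, AT5G38180 with -1.96 in lec2-1 and AT5G62960 with -1.95 in lec1-1. Of the genes left out by name, LHCB4.3 and DFR did not meet the thresholds: LHCB4.3, a light-harvesting protein, differed by -1.30 in lec2-1 and -1.45 in WS, and DFR, an enzyme of anthocyanin and tannin synthesis, was higher at 12 DAF by 1.40 in lec1-1 and 1.25 in lec2-1.

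The wild types differed in the 8 DAF level of many of these genes. At 8 DAF 19 of the 60 genes had a mean at least 1 unit lower in WS than in Col-0, against 3.38% of all genes, and 2 had a mean at least 1 unit higher, against 3.25%. The largest differences, WS minus Col-0, were -3.10 for AT1G56100 (6.36 in WS and 9.46 in Col-0) and -2.76 for GILT (9.36 and 12.1). AT3G22620 ran the other way, with 10.5 in WS and 8.32 in Col-0. At 12 DAF 12 genes were lower in WS by at least 1 unit, where the share of all genes was 3.66%, and 2 were higher, against 2.07%. The strain and the set of arrays cannot be told apart here, so no test was made of this comparison.

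In fus3-3 at 12 DAF 21 of the 60 genes differed from Col-0 at an adjusted p under 0.05 and at least 2-fold in limma's moderated test, against 23.4% of all genes. Of them 15 were lower and 6 higher, against 11.5% and 11.9% of all genes. GH3.9 was the most reduced gene and AT5G01870 the most raised. The median difference of the 60 genes was -0.17, against -0.06 over all genes. The actin control probe sets, whose 3′ minus 5′ signal grows as RNA is degraded or incompletely copied, gave 5.91 ± 0.76 in fus3-3 and 4.87 ± 0.04 in Col-0 at 12 DAF (SD, n = 3 each), without overlap, and the part of this in the result was not tested. The GAPDH control probe sets ran the other way, at 1.92 ± 0.19 in fus3-3 and 2.37 ± 0.34 in Col-0.

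GH3.9 at 12 DAF read 4.07, 4.56 and 4.37 in fus3-3, against 8.31, 8.04 and 8.14 in Col-0. The groups lay almost 4 units apart without overlap, a difference of -3.83 ± 0.16 (SE, limma, adjusted p = 1.55e-07). At 8 DAF it read 9.28, 9.36 and 9.81 in fus3-3, against 10.77, 10.69 and 10.86 in Col-0, a difference of -1.29 ± 0.16 (limma, adjusted p = 5.85e-04). AT1G62070 was lower by 3.53 ± 0.57 at 12 DAF (limma, adjusted p = 8.21e-04), from the arrays given above. AT5G63180 read 3.69, 4.08 and 3.94 in fus3-3, against 6.56, 6.16 and 6.40 in Col-0, a difference of -2.47 ± 0.23 (limma, adjusted p = 2.26e-05). AT2G42860 read 2.56, 2.99 and 2.80 in fus3-3, against 5.33, 5.10 and 5.19 in Col-0, a difference of -2.43 ± 0.18 that ends near the floor. EXLA1 was lower by 1.52 ± 0.28 (limma, adjusted p = 0.00171), also without overlap.

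The 6 genes higher in fus3-3 at 12 DAF were AT5G01870, AT3G12870, AT5G17160, AT1G49580, AT4G26790 and AT3G22540. AT5G01870 read 7.74, 8.16 and 7.42 in fus3-3, against 2.28, 4.82 and 2.87 in Col-0. Its difference was 4.45 ± 0.54 (limma, adjusted p = 1.36e-04), although the Col-0 arrays themselves spread over 2.5 units. At 8 DAF the same gene read 10.11, 10.10 and 9.65 in fus3-3, against 10.71, 10.46 and 10.49 in Col-0, and this difference did not pass the test (-0.60 ± 0.54). These arrays did not overlap, and the SE takes in the spread of the Col-0 arrays at 12 DAF. AT5G17160 read 5.69, 5.38 and 4.73 in fus3-3 at 12 DAF, against 2.85, 2.74 and 2.95 in Col-0, a measured difference of 2.42 ± 0.28. AT3G12870 differed by 2.45 ± 0.27, AT1G49580 by 2.38 ± 0.32 and AT4G26790 by 1.66 ± 0.21. The Col-0 means of AT5G17160 and AT1G49580 were under 3, so their differences are lower bounds. All 6 genes were thus above their Col-0 level at 12 DAF in fus3-3, and none of the 6 was called at 8 DAF.

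At 8 DAF 11 of the 60 genes differed between fus3-3 and Col-0, against 8.27% of all genes. Of these 10 were lower, against 4.25% of all genes, and AT1G59930 was higher, against 4.03%. AT1G50650 read 6.23, 7.07 and 5.61 in fus3-3, against 8.51, 8.81 and 9.57 in Col-0, a difference of -2.66 ± 0.35 (limma, adjusted p = 8.88e-04). AT1G07750 read 8.52, 9.48 and 8.72 in fus3-3, against 11.25, 10.89 and 11.03 in Col-0, a difference of -2.15 ± 0.31. AT4G33600 differed by -1.82 ± 0.38, GILT by -1.53 ± 0.34 and scpl20 by -1.07 ± 0.20. AT1G59930 was the exception, with 6.16, 6.43 and 5.87 in fus3-3 against 5.11, 4.73 and 5.10 in Col-0, a difference of 1.17 ± 0.14. None of the 11 overlapped between the groups. A call with 3 arrays a group makes this likely, so it is not read as further evidence.

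Replicate 2 of fus3-3 at 8 DAF was the highest of the 3 for 39 of the 60 genes. Such tilts were seen elsewhere too: replicate 2 of fus3-3 at 12 DAF was the highest for 35, replicate 1 of lec2-1 at 8 DAF the lowest for 40 and replicate 3 of WS at 8 DAF the lowest for 35. At 8 DAF against Col-0 the fit without fus3-3 replicate 2 called 19 genes, 16 of them lower, while the fit without replicate 1 called 7. Shares of all genes called in these fits are not given here, so the counts are not read as a trait of the 60. The 7 measured genes of a seed coat and mucilage list, 3 of which were left out of the group by name, moved the same way: their mean log2 signal was 8.10, 8.98 and 8.28 in fus3-3 at 8 DAF, with the highest in replicate 2, against 9.32, 9.42 and 9.40 in Col-0. AT3G50990, 1 of the 3 genes of that list called lower there, was at 2.75 in fus3-3 and 4.81 in Col-0. The part of this shift in the lower calls was not tested.

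In lec1-1 at 12 DAF 13 of the 60 genes differed from WS, against 20.3% of all genes, 7 of them higher and 6 lower, against 10.4% and 9.93%. GH3.9 and AT5G01870 again differed most, in arrays that share no sample with the fus3-3 comparison. GH3.9 read 3.81, 4.27 and 4.11 in lec1-1, against 7.83, 7.51 and 7.70 in WS, a difference of -3.62 ± 0.14 (limma, adjusted p = 9.44e-11). AT5G63180 read 3.01, 3.01 and 3.27 in lec1-1, against 6.03, 5.50 and 5.55 in WS, a difference of -2.60 ± 0.17. AT2G42860 differed by -1.77 ± 0.29, a lower bound in size as its lec1-1 mean was under 3, and AT1G12080 by -1.5 ± 0.20. In each of these the groups did not overlap.

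Higher in lec1-1 at 12 DAF were AT5G01870, AT5G17160, AT3G12870, AT5G11230, AT4G26790, AT2G27130 and AT5G12970. AT5G01870 read 8.72, 8.52 and 8.53 in lec1-1, against 5.70, 4.88 and 4.22 in WS, a difference of 3.66 ± 0.28 (limma, adjusted p = 8.69e-08). AT5G17160 read 5.89, 6.06 and 5.86 in lec1-1, against 3.05, 2.95 and 2.77 in WS, a difference of 3.01 ± 0.27. AT3G12870 read 4.88, 4.91 and 4.81 in lec1-1, against 2.17, 2.86 and 2.67 in WS, a difference of 2.30 ± 0.26. For all 3 genes the groups did not overlap, and the WS means of AT5G17160 and AT3G12870 were under 3, which makes their differences lower bounds in lec1-1 and in lec2-1. Of the 60 genes 8 were called the same way in fus3-3 and lec1-1 at 12 DAF, which is 38.1% of the 21 and 61.5% of the 13, and none in opposite ways. Over all genes the corresponding shares were 64.9% and 74.9%.

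At 8 DAF 7 of the 60 genes differed between lec1-1 and WS, against 10.5% of all genes, 4 higher and 3 lower, against 4.75% and 5.77%. AT3G22540 was the most reduced, with 5.25, 4.76 and 5.13 in lec1-1 against 7.76, 7.50 and 7.69 in WS, a difference of -2.61 ± 0.17 (limma, adjusted p = 5.56e-08). AT3G11180 differed by -2.04 ± 0.30 and GH3.9 by -1.36 ± 0.14. AT1G59930 read 7.24, 6.49 and 7.37 in lec1-1, against 5.26, 5.61 and 5.32 in WS, a difference of 1.63 ± 0.19. AT5G17160 was higher by 1.40 ± 0.27, AT4G19460 by 1.2 ± 0.12 and Hsp70-2 by 1.1 ± 0.23. With each array centred on 5 reference genes, which placed the median of all genes at 0.37, 7 genes were called higher and 2 lower at 8 DAF. At 12 DAF the same centring placed that median at 0.30 and called 10 higher and 5 lower. Before centring, the median difference of the 5 reference genes, lec1-1 minus WS, was -0.55 at 8 DAF and -0.56 at 12 DAF. Shares of all genes called after centring are not given here, so these counts and those below are not set against them.

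In lec2-1 fewer genes differed from WS, in the group as over all genes. At 12 DAF 5 of the 60 genes passed, against 6.39% of all genes, 4 higher and 1 lower, against 5.08% and 1.32%. AT4G26790 read 5.22, 4.32 and 4.72 in lec2-1, against 2.95, 3.32 and 3.38 in WS, a difference of 1.54 ± 0.21 (limma, adjusted p = 1.04e-04). AT1G73600 read 4.53, 3.95 and 4.13 in lec2-1, against 2.95, 2.94 and 3.00 in WS, a difference of 1.24 ± 0.13 from a WS level at the floor. AT3G12870 was higher by 1.18 ± 0.26 and AT5G17160 by 1.17 ± 0.27. The gene that was lower, AT1G12080, read 4.31, 4.84 and 5.08 in lec2-1, against 5.77, 6.25 and 6.15 in WS, a difference of -1.31 ± 0.20. Without replicate 2 of WS 8 genes passed, and the share of all genes in that fit is not given here. Without replicate 1 of WS the difference of AT3G12870 was 0.98, under the 2-fold minimum. GH3.9 differed by -0.94 ± 0.14 and also missed that minimum, and AT5G01870 did not pass the test (-0.12 ± 0.28).

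At 8 DAF 5 of the 60 genes differed between lec2-1 and WS, against 2.68% of all genes, 3 higher and 2 lower, against 1.6% and 1.08%. AT1G59930 read 7.93, 8.16 and 8.27 in lec2-1, against 5.26, 5.61 and 5.32 in WS, a difference of 2.72 ± 0.19 (limma, adjusted p = 8.80e-07). Its probe set may bind other transcripts too, by the suffix of its name. AT4G19460 read 6.87, 6.40 and 7.02 in lec2-1, against 4.95, 4.89 and 4.92 in WS, a difference of 1.84 ± 0.12. AT3G22540 read 5.08, 5.65 and 5.59 in lec2-1, against 7.76, 7.50 and 7.69 in WS, a difference of -2.21 ± 0.17. These 3 genes were called in the same direction in lec1-1 at 8 DAF, but both mutants were set against the same WS arrays. Centring on the reference genes called 6 higher and 1 lower. At 8 DAF the actin 3′ minus 5′ signal was 5.92 to 6.08 in lec1-1 and 5.78 to 5.97 in lec2-1, against 5.65 to 5.73 in WS. The GAPDH signal was lower on average in both mutants, at 1.56 to 1.68 in lec1-1 and 1.46 to 1.62 in lec2-1, against 1.64 to 1.76 in WS. At 12 DAF actin gave 5.34 to 5.67 in lec1-1 and 5.24 to 5.43 in lec2-1, against 5.32 to 5.35 in WS. GAPDH then gave 1.84 to 1.88 and 2.06 to 2.32, against 2.19 to 2.31. The part of both controls in the results of both mutants was not tested.

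**Figure D3:**
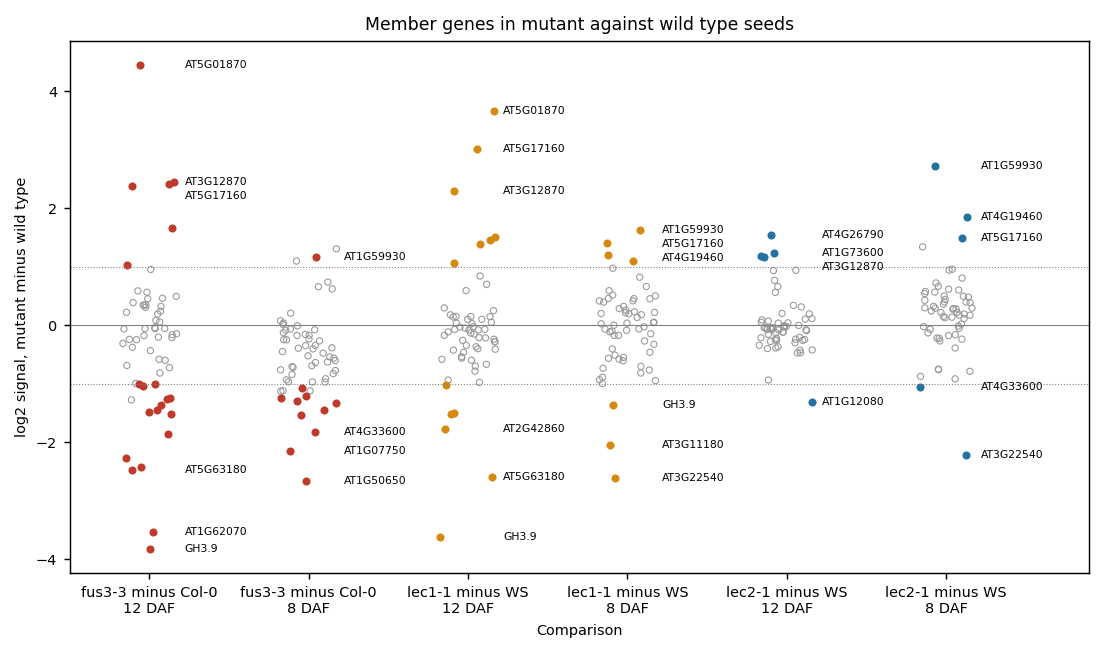
Difference in log2 signal, mutant minus wild type, for each of the 60 genes (points) in the 6 comparisons; filled points passed an adjusted p under 0.05 and the 2-fold minimum (dotted lines), open points did not, and up to 3 called genes in each direction are named. GH3.9 lies at -3.83 in fus3-3 and -3.62 in lec1-1 at 12 DAF, and AT5G01870 at 4.45 and 3.66.

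Over the 6 comparisons 22 of the 60 genes passed in none, among them TBL45, CML41, RING1, HOS3-1 and SBT4.13. Another 25 passed in 1, 5 in 2 and 6 in 3. GH3.9 passed in 4, lower in each, and AT5G17160 in 5, higher in each. Such counts were not made over all genes, so they are not read as a trait of the 60. A gene that was not called was not shown to be unchanged, and at 12 DAF many were near the floor in both groups.

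The mutants lec1-1 and lec2-1 were also tested against each other. At 12 DAF 9 of the 60 genes differed, against 11% of all genes, 3 higher and 6 lower in lec1-1, against 5.52% and 5.49%. GH3.9 was lower in lec1-1 by 2.68 ± 0.14 units than in lec2-1, whose arrays read 6.69, 6.93 and 6.60 (limma, adjusted p = 7.60e-09). AT5G63180 read 3.01, 3.01 and 3.27 in lec1-1, against 5.53, 4.93 and 5.22 in lec2-1, a difference of -2.13 ± 0.17. AT5G01870 read 8.72, 8.52 and 8.53 in lec1-1, against 5.32, 4.42 and 4.7 in lec2-1, a difference of 3.78 ± 0.28. AT5G17160 differed by 1.84 ± 0.27. At 8 DAF 5 genes differed, against 5.07% of all genes, all 5 lower in lec1-1, against 2.81%, and none higher, against 2.26%. The largest of these was AT5G12460, with 6.54, 6.72 and 6.73 in lec1-1 against 7.88, 8.41 and 8.37 in lec2-1, a difference of -1.56 ± 0.10. With centring on the reference genes, which placed the median of all genes at 0.27, 1 gene was higher and 1 lower at 8 DAF, and 6 were higher and 4 lower at 12 DAF with that median at 0.31.

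**Figure D4:**
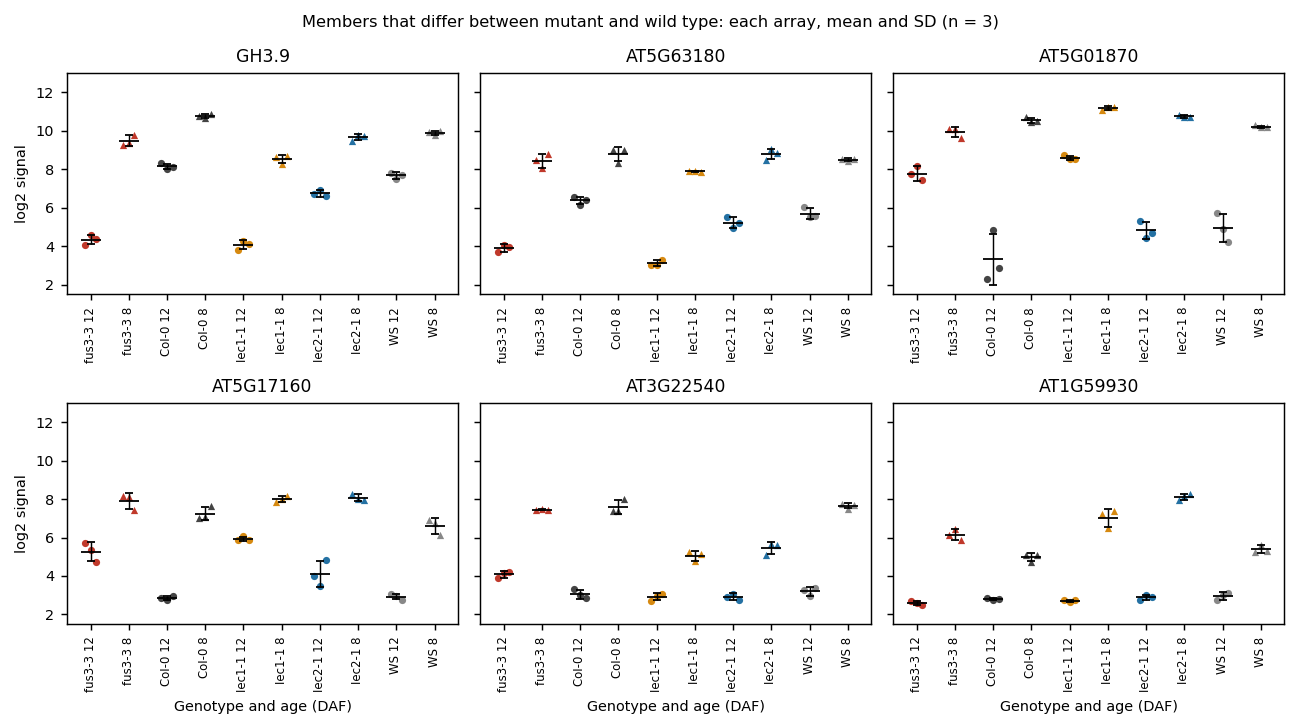
Log2 signal on each array (points; circles 12 DAF, triangles 8 DAF) with the group mean and SD (n = 3) for 6 of the genes that differed between mutant and wild type. At 12 DAF GH3.9 and AT5G63180 are lower in fus3-3 and lec1-1 than in the wild types, AT5G01870 and AT5G17160 are higher there, and at 8 DAF AT3G22540 is lower and AT1G59930 higher in lec1-1 and lec2-1 than in WS.

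Gene lists of seed processes give the surroundings of these values. None of the 60 genes belongs to the lists named in this paragraph. Of 7 measured genes of a gibberellin and auxin list, 3 were called lower and 1 higher at 12 DAF in fus3-3, and 3 lower and 1 higher in lec1-1, while in lec2-1 1 was lower and 1 higher. The lower ones in fus3-3 and lec1-1 were IAA31 (-4.18 ± 0.39 and -2.97 ± 0.17) and IAA30 (-2.76 ± 0.22 and -2.28 ± 0.16), which encode repressors of auxin response, and YUC4 (-1.80 ± 0.22, a lower bound in size, and -1.98 ± 0.26), an enzyme of auxin synthesis. The higher one was GID1B, a gibberellin receptor. GH3.9, from the same hormone field but not of that list, was lower in the same comparisons.

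Of 3 measured cell cycle genes, PRL, a subunit of the complex that unwinds DNA for replication, and AUR1, a mitotic kinase, were called higher at 12 DAF in fus3-3 (4.1 ± 0.13 and 1.48 ± 0.16) and in lec1-1 (4.56 ± 0.33 and 1.57 ± 0.25). In lec2-1 PRL was higher by 2.46 ± 0.33, and AUR1 was at the floor in lec2-1 (1.99) and in WS (1.97). PRL and AUR1 were under 3 in Col-0 and WS, so their differences are lower bounds. The third, AUR2, passed in none of these 3 comparisons. PRL was at 6.26 in fus3-3 at 12 DAF and 2.16 in Col-0, and at 6.56 in lec1-1 and 4.47 in lec2-1 against 2.00 in WS. In each mutant PRL was called higher at 12 DAF, as were AT5G17160, AT3G12870 and AT4G26790 of the 60 genes. Of all genes 11.9% were called higher there in fus3-3, 10.4% in lec1-1 and 5.08% in lec2-1.

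Genes of photosynthesis were measured for 11 of 19 on the list. All 11 were called lower at 12 than at 8 DAF in Col-0 and in WS, but in each mutant 1 was called lower, which was LHCB4.3 in all 3, and in lec1-1 2 were called higher. Their median difference, 12 minus 8 DAF, was -0.38 in fus3-3 and -3.95 in Col-0, and 0.65 in lec1-1 and -0.71 in lec2-1 with -5.43 in WS. At 12 DAF 8 of them were higher and 1 lower in fus3-3 than in Col-0, where 11.9% and 11.5% of all genes were. In lec1-1 10 were higher and 1 lower than in WS, against 10.4% and 9.93%, and in lec2-1 10 were higher and none lower, against 5.08% and 1.32%. Of the 7 seed coat genes 5 were called lower with age in fus3-3 and 6 in Col-0, and 5 in lec1-1 and 4 in lec2-1 with 4 in WS. BAN, an enzyme of tannin precursors in the innermost seed coat and 1 of the genes left out by name, had 3.10 at 12 and 9.91 at 8 DAF in fus3-3, and 3.70 and 10.2 in Col-0.

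The 60 genes were scattered over the genome. No 2 of them were neighbours among protein-coding genes, and the closest pair was scpl20 and GILT with 4 genes between them, followed by AT3G22540 and AT3G22620 with 7. Of the measured direct neighbours, AT3G13660 beside AT3G13650 fell by at least 2 units in 4 genotypes and AT1G71691 beside AT1G71690 in 3. Of 58 measured direct neighbours 24 differed by at least 1 unit between the ages in some genotype. The share of all genes by this measure is not given here, so the count is not read as a trait of the neighbours. The signal of AT4G36600 beside AT4G36610 was higher at 12 DAF by 4.09 in Col-0, and that of AT4G17470 beside AT4G17480 by 3.95 in lec1-1 and 3.87 in lec2-1. SWEET2, a sugar transporter beside AT3G14760, was higher by 2.85 in Col-0.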

How the data were processed

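The deposited values are log2 signal of an Affymetrix array with 22810 probe sets. Per the submitters' processing notes the authors used GCOS 1.3 and GCRMA, whose version is not given in the sources used here, nor is it known whether the 30 arrays went through it jointly. The values were used as deposited. Of the probe sets, 64 were controls, 13513 had 1 gene, 503 several and 8730 none. For each of 13355 genes the probe set of highest mean over 30 arrays was kept, with names from the array annotation and a TAIR10.1 gene table. The 60 genes, the gene lists and the rule for naming genes (the 10 largest mean falls, up to 3 called genes without overlap in each direction for each mutant comparison and up to 2 for lec1-1 against lec2-1, the 4 genes on either side of the threshold, list members and chromosomal neighbours) were chosen with earlier results of these data known. The genes named as examples of counts, and the other called and named genes, were picked after their values were seen.

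Models with 1 mean per group were fitted with limma 3.58.1 in R 4.3.3 (lmFit, eBayes), separately for the 12 arrays of the Col-0 background and the 18 of the WS background, with Benjamini-Hochberg adjustment across the 13355 genes. A gene was called, or described as passing, when its adjusted p was under 0.05 and the groups differed 2-fold or more. SEs are limma's. The fits were tested on simulated data. The number of arrays, 3 in a group, limits the precision. Figures were drawn with matplotlib 3.10.9.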

Additional observations from a re-analysis of the deposited data

Results flagged for a closer look

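For 14 results the effects of lec1-1 and lec2-1 against their shared WS arrays differed by a test of lec1-1 against lec2-1 itself (limma, over all genes). At 8 DAF, lec1-1 minus lec2-1 was -1.56 for AT5G12460, -1.18 for AT1G73600, -1.17 for AT3G11180, -1.14 for GH3.9 and -1.09 for AT1G59930. AT1G59930 was above WS in both mutants, and more so in lec2-1. At 12 DAF it was -2.68 for GH3.9, -2.13 for AT5G63180, -1.51 for AT2G42860, -1.5 for AT4G33600, -1.27 for AT3G11180 and -1.09 for AT1G73600. The lec1-1 means of AT2G42860, AT4G33600 and AT3G11180 were under 3 at that age, so their differences are lower bounds in size. Differences above 0 at 12 DAF were 1.12 for AT3G12870, 1.84 for AT5G17160 and 3.78 for AT5G01870. GH3.9, AT3G11180 and AT1G73600 were lower in lec1-1 at both ages. For each of the 14 the 3 lec1-1 arrays did not overlap with the 3 lec2-1 arrays, which a call with 3 arrays a group makes likely. Groups of 3 arrays were too small to be screened for single outlying samples.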

How the results depend on the processing

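For 37 tested values of named genes, 9 other settings gave 333 results, of which 327 kept direction and call, 6 lost the call and 0 reversed. The 37 were picked as called values, and dropping the fold minimum cannot lose a call. Most of these results were thus likely to hold by the choice itself. With 1 array left out, 217 of 222 kept the call. A fall of at least 1.5 units gave 116 genes and 2.5 units 35, and leaving out 1 array gave 56 to 65. Of the 60 genes, fus3-3 against Col-0 at 8 DAF called 6 at an adjusted p under 0.01 and 7 to 19 with 1 array left out (7 without fus3-3 replicate 1, 19 without replicate 2). Without a fold minimum the calls were 21 for lec1-1 and 13 for lec2-1 at 8 DAF, 25 for lec1-1 and 10 for lec2-1 at 12 DAF, and 13 and 19 for lec1-1 against lec2-1 at 8 and 12 DAF. Centring on reference genes left 2 for lec1-1 against lec2-1 at 8 DAF. The causes were not tested. Shares of all genes under the settings of this section are not given here, so its counts are not read as a trait of the 60. Leaving out 1 array gave 16 to 21 for fus3-3, 11 to 15 for lec1-1 and 4 to 8 for lec2-1 at 12 DAF, 6 to 10 for lec1-1 and 5 to 7 for lec2-1 at 8 DAF, and 5 to 7 and 8 to 11 for lec1-1 against lec2-1 at 8 and 12 DAF. With the replicate number as a block the calls were 11, 7 and 5 at 8 DAF and 22, 13 and 5 at 12 DAF for fus3-3, lec1-1 and lec2-1, and 5 and 9 for lec1-1 against lec2-1, so the block moved no count by over 1.5 times. Deviations of arrays with the same replicate number did not correlate above 0.1 for all 3 numbers in any comparison, so the numbers were not taken to pair the arrays. Signals near the floor limit how far a fall can be read, and 3 arrays a group limit small differences.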
